A study of Mus musculus with 57 samples.

Results

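The mitochondrial ribosomal protein genes are the nuclear genes named Mrpl or Mrps followed by a number, for proteins of the large and the small subunit of the mitochondrial ribosome. The rule uses the symbol alone and no measured value, and it took 76 of the 10565 genes in the table, 47 named Mrpl and 29 named Mrps. Large and small subunit genes below are these classes of symbols. The small subunit class thus holds Mrps30, Mrps18a and Mrps36, which are described below as sitting elsewhere. All 76 are named in the mouse annotation and lie on 17 chromosomes. Their levels were read in 56 single wild-type Th2 cells, each sequenced as its own library. The cells came from splenic CD4+ T cells of 8-week-old C57BL/6 mice that were activated and cultured for 5 days under Th2 conditions (interleukin-4, with interferon gamma blocked by an antibody, and interleukin-2 added from day 2). They were then restimulated through CD3 and CD28 and captured one by one on a Fluidigm C1, a microfluidic chip that lyses each cell and amplifies its cDNA. Cell names place them in 5 sets, T1 with 8 cells and T2 to T5 with 12 cells each. The labels do not say what a set is, so sets were kept as a possible batch. The pooled sample of 10000 cells was not used here. Separate mice or cultures are not named in the labels, which makes the 56 cells 1 sample: every SD below is a spread over cells, correlations are descriptions without a p-value, and no test between cells was made.

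Mitochondria keep a small genome of their own, and the few proteins it encodes, all of them parts of the respiratory chain and ATP synthase, are made on a dedicated ribosome. Its RNA comes from the mitochondrial genome, whereas all of its proteins are encoded in the nucleus, made in the cytosol and imported. Many of these proteins have a counterpart in bacterial ribosomes and the others were added in the course of mitochondrial evolution. T cells that leave the resting state and divide are known to enlarge their mitochondria and to need mitochondrial translation.

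The libraries were checked before the members were described. Of the fixed T cell and Th2 markers, Cd3d, Cd3e, Cd2 and Gata3 were detected in 56 of 56 cells, Ecm1 in 56, Cd3g and Il4 in 54, Ccr8 in 52 and Cd4, at a mean of 47.4 TPM, in 37, detection meaning 1 TPM (a transcript's share of the library, corrected for its length and scaled so that all genes of a cell sum to the same total) or more. Among markers of other cells, the B cell gene Cd74 was detected in 32 cells, the mast cell gene Cpa3 in 5, the erythroid gene Alas2 in 2 and the CD8 T cell gene Cd8b1 in 1; a part of these in the results was not tested. No 2 of the 56 cells had identical values over the 1540 pairs. The median cell had 4743.5 genes detected, between 2679 and 8396. A pair of cells stood apart. In T3_2, 18 of the 76 members were detected and 78.3% of their summed TPM came from Mrpl47 and Mrpl10, while T3_5 had all 76 members and the most genes of any cell, 8396. The mean rho between members and several other main results are given with and without T3_2 or both cells. The mean rho by subunit or evolutionary class, by member and by gene list is given over all 56 cells only.

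Promoters are shown first because a few patterns were more frequent in the members' windows than in those of other genes of the table. RefSeq windows on GRCm38.p6, from 250 bases before to 50 bases after a transcript start, were matched by symbol for 67 of the 76 members and gave 73 windows. They were searched on both strands for letters known from promoters of nuclear genes for mitochondrial proteins. These were GCGCATGC, the core bound by NRF1, CCGGAAG, bound by ETS factors such as GABPA, and AAGATGG, the core bound by YY1. The ETS letters were in 32.9% of the members' windows, in 18.8% of the 9439 windows of the table's other genes and in 8.86% of all 32851 RefSeq windows. For the YY1 letters the shares were 17.8% in the members' windows, 7.47% in those of other genes of the table and 6.34% in all windows, and for the NRF1 letters 11%, 5.50% and 2.71%. At least 1 of these 3 patterns was in 49.3% of the members' windows, in 28.6% of windows of the other genes of the table and in 16.6% of all windows. Such a match describes letters in a window and does not show binding. The windows below belong to Mrpl17 and Mrpl52, the 2 members whose levels went together most closely from cell to cell, to Mrpl33, one of the members found in every cell, and to Mrps27, which belongs to another of the closest pairs. They were chosen after these values were seen and each holds 2 of the patterns. Other members of the closest pairs held fewer: the window of Mrps6, the partner of Mrps27, had none of the 3 patterns. That of Mrps7, from another of these pairs, had the YY1 letters alone. The windows are chr7:105811038-105811337 on the minus strand for Mrpl17, chr14:54426659-54426958 on the plus strand for Mrpl52, chr5:31613701-31614000 on the plus strand for Mrpl33 and chr13:99344536-99344835 on the plus strand for Mrps27. Capitals mark the NRF1, ETS and YY1 letters on either strand.
Mrpl17: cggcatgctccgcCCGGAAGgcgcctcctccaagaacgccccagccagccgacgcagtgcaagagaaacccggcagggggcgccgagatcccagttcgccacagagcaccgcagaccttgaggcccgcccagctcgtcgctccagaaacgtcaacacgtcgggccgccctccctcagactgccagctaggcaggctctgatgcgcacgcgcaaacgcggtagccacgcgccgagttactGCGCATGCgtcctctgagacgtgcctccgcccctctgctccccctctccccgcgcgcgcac
Mrpl52: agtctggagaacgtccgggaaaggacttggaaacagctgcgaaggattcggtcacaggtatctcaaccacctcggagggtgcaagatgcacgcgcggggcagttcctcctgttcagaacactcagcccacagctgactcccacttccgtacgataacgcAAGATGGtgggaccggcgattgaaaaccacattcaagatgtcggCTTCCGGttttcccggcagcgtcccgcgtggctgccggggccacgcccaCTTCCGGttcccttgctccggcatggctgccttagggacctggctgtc
Mrpl33: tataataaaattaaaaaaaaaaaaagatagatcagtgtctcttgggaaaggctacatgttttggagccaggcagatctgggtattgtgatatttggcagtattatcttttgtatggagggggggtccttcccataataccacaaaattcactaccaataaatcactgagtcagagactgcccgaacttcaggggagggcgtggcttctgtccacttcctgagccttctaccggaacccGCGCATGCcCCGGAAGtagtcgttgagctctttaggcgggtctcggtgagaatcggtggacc
Mrps27: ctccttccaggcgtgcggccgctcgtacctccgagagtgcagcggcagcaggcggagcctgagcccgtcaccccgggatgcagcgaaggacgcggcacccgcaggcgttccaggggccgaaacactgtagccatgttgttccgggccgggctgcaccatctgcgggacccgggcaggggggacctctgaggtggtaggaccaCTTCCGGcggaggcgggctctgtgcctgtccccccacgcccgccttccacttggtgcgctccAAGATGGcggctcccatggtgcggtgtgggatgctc

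Mrpl17 and Mrpl33 carry the NRF1 and the ETS letters, and Mrpl52 and Mrps27 the ETS and the YY1 letters. In the members' windows, 19 of 28 ETS matches, 10 of 15 YY1 matches and 7 of 14 NRF1 matches began within 50 bases of the transcript start. Matches were counted on each strand, so an NRF1 site that reads on both strands, as in Mrpl9, Mrpl32 and Mrpl39, counts more than once. Positions were not counted in the windows of other genes, so whether this is particular to the members was not tested. Other common promoter letters were searched in the same windows. The Sp1 letters GGGCGG were in 52.1% of members' windows and in 62.8% of the windows of the table's other genes, the E-box CACGTG, bound by MYC and USF, in 9.59% of members' windows and 10.4% of the others, and CCAAT, bound by NF-Y, in 41.1% of members' windows and 38.3% of the others. The median GC content was 58.3% in the members' windows and 60.7% in the other genes' windows. The patterns did not sort the members by expression. The 36 members with NRF1, ETS or YY1 letters had a median mean level of 112 TPM and the 31 members without them 128 TPM, and the median over members of the mean rank correlation with the other members was 0.0914 with the letters and 0.0879 without.

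The members together made up 1.25% of the TPM in a cell. Their summed level was 12487 ± 2801 TPM (mean ± SD over 56 cells), with 6232 TPM in the lowest cell (T5_1), 12195.5 TPM in the median cell and 21455 TPM in the highest (T3_6). The median sum was 13351.5 TPM for set T1, 11373 TPM for T2, 12380 TPM for T3, 12323 TPM for T4 and 11851 TPM for T5, and the sets overlapped widely. The large subunit genes summed to 8542 ± 2335 TPM and the small subunit genes to 3945 ± 1180 TPM. T3_2 was the lowest cell for the small subunit, with 182 TPM over 29 genes, where the next lowest cell had 1825 TPM.

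The sum was steadier from cell to cell than its parts. Its coefficient of variation (CV, the SD over the mean) was 22.4%, and the median CV of a single member was 135%. If the members varied independently of each other, the SDs of single members would add to a CV of 15.4%, so the variance of the sum was 2.11 times that of independent genes. Without T3_2 the ratio was 2.16. Computed in the same way, the ratio was 8.20 for cytosolic ribosomal proteins (8.46 without T3_2), 5.55 for nuclear genes of oxidative phosphorylation (4.13), 3.09 for MYC and growth genes (3.01) and 2.99 for proteasome subunits (2.28). For the 11 Th2 cytokines it was 1.83. At a given correlation between genes this ratio rises with their number. The lists held 73 cytosolic ribosomal proteins, 76 oxidative phosphorylation genes, 37 MYC and growth genes and 31 proteasome subunits. The ratios therefore do not rank lists of different size by how closely their genes went together. Within sets the members' ratio lay between 1.22 in T1 and 2.42 in T4.

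Levels of single members spanned a wide range. The median over members of the mean level was 114 TPM, against 31.0 TPM over the 7871 genes that were detected in at least 10 cells, and all 76 members were among those genes. Mean levels were over 300 TPM for 14 members and under 50 TPM for 15. The 8 members with the highest means supplied 30.5% of the members' sum.

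**Figure D1:**
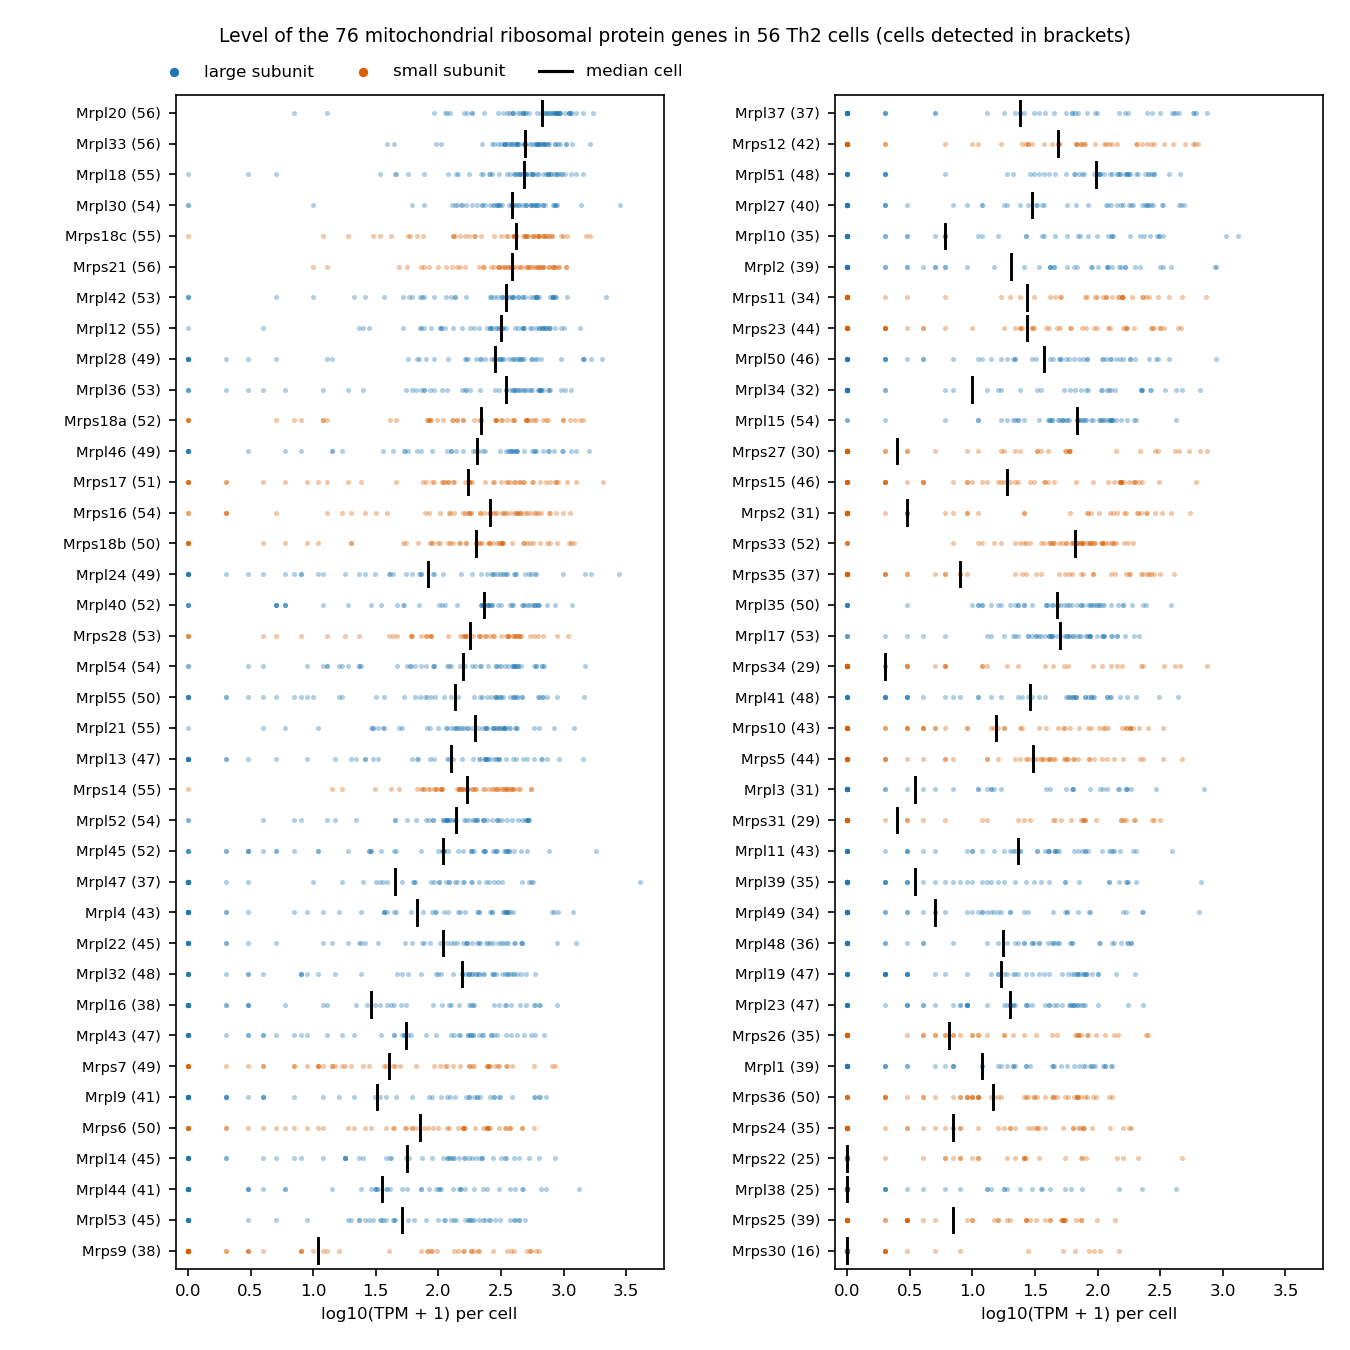
Level of each member in every cell, as log10(TPM + 1), ordered by mean TPM from the top left to the bottom right, with the number of cells that detected the gene in brackets and the median cell as a black bar. Mrpl20, with a mean of 639 TPM, stands at the top and Mrps30, with 10.6 TPM and detection in 16 cells, at the bottom.

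Mrpl20, whose bacterial counterpart binds early in the assembly of the large subunit, had the highest mean, 639 ± 381 TPM. It was detected in every cell, with 6 TPM in the lowest, 674.5 TPM in the median and 1729 TPM in the highest cell. Mrpl33, a small protein of the large subunit, followed at 545 ± 287 TPM with a range of 38 to 1631 TPM around a median of 492 TPM. Mrpl18, whose bacterial counterpart holds a ribosomal RNA in the central protuberance, had 501 ± 338 TPM (0 to 1427, median 485.5). The SDs of neighbours in this order were far larger than the steps between their means. They are spreads over cells and not errors of the means, and whether neighbours differ in mean was not tested. Mrpl30 had 458 ± 417 TPM (0 to 2808, median 388). Mrps18c, one of 3 mammalian relatives of a single bacterial small subunit protein, had 452 ± 352 TPM (0 to 1618, median 414). Mrps21 had 435 ± 281 TPM and was detected in all cells (9 to 1052, median 386). Mrpl42, a mitochondria-specific subunit, had 392 ± 371 TPM (0 to 2171, median 346.5). Mrpl12, the stalk protein that draws translation factors to the ribosome and in human cells also binds the mitochondrial RNA polymerase, had 389 ± 300 TPM (0 to 1352, median 316).

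The 5 members with the lowest means had between 10.6 and 28.8 TPM. Mrps30, which in mammalian structures sits in the large subunit in spite of its symbol, had 10.6 ± 30.1 TPM and was detected in 16 of 56 cells (exact Clopper-Pearson 95% interval of the share 17.3% to 42.2%, counting error only). Mrps25 averaged 21.3 ± 29.1 TPM with detection in 39 cells, and Mrpl38 22.4 ± 66.3 TPM with detection in 25. Mrps22, in which inherited defects of human mitochondrial translation are known, averaged 26.7 ± 73.2 TPM and was detected in 25 cells, and 31.4% of its total came from a single cell, T4_4. Mrps24, the counterpart of a core bacterial protein at the messenger entry, averaged 28.8 ± 45.4 TPM and was detected in 35 cells. A value of 0 in a single-cell library can be a lost transcript, so these genes are not called absent from the cells where they are listed at 0.

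Detection followed level. A member was detected in a median of 46.5 cells, against 30 for all 7871 genes. Mrpl20, Mrpl33 and Mrps21 (3 of 76, 3.95%) were detected in every cell, against 3.77% of all genes of the table, and 27 members were detected in 50 or more cells. Without T3_2, 5 members (6.58%) were in every cell, against 5.25% of all genes, and with detection at 10 TPM it was 1 member (1.32%), against 1.74%. Beside genes of like level the members were ordinary. Of 76 members, 34 (44.7%) were detected in more cells than the running median of the genes nearest in mean TPM, and 45.3% of all 7871 genes were. Of all values of members, 20.9% were 0, against 55.4% over the whole table.

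The 2 subunits and the 2 evolutionary classes overlapped in level. The median mean level was 129 TPM in the 47 large subunit genes and 77.5 TPM in the 29 small subunit genes. It was 72.3 TPM in the 28 mitochondria-specific members and 134 TPM in the 48 with a bacterial counterpart. Both classes held low and high members, from 10.6 to 392 TPM in the mitochondria-specific class and from 28.8 to 639 TPM in the bacterial one.

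Cell-to-cell variation, taken as the squared CV, was in the median close to that of genes of like level, with a smaller share of highly variable genes than over all genes. It was measured as the squared CV of TPM, on a log2 scale, minus the running median over the genes nearest in mean TPM; this excess is 0 for a gene that varies as its neighbours do, and a value below -1 or above 1 was called. The median excess of the members was -0.17. It was below -1 in 13 members (17.1%), against 15.1% of all 7871 genes, and above 1 in 3 members (3.95%), against 13.1% of all genes. Cytosolic ribosomal proteins, the corresponding genes of the ribosome that makes most cell protein, had a median excess of -1.52 and were below -1 in 58 of 73. Genes of oxidative phosphorylation were below -1 in 18 of 76. The median excess was 0.05 in large subunit genes and -0.23 in small subunit genes, and in the mitochondria-specific and bacterial classes it was -0.19 and -0.17.

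**Figure D2:**
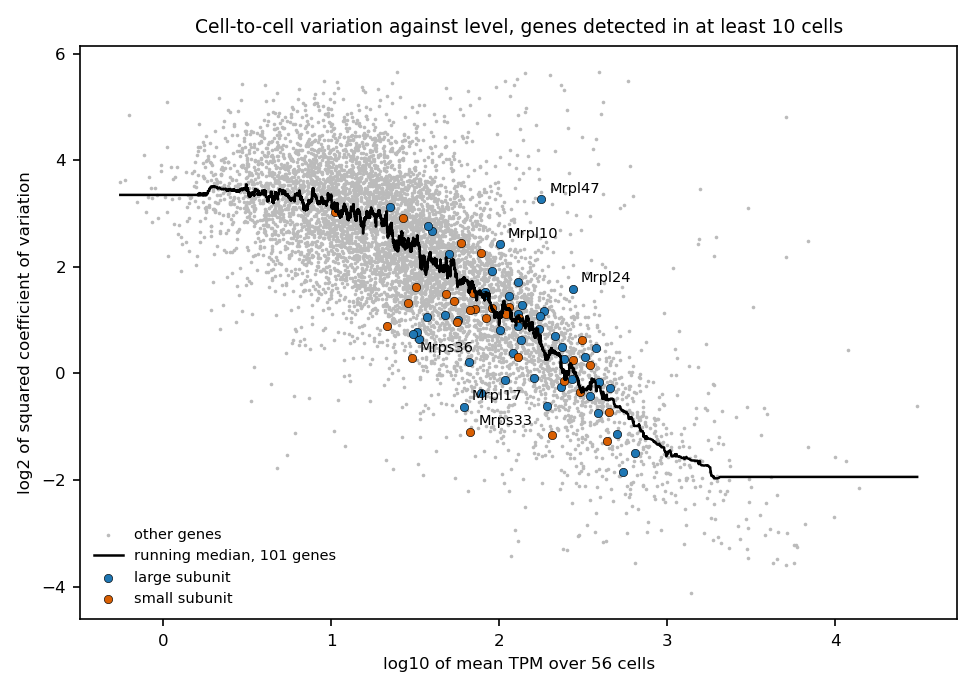
The log2 squared coefficient of variation over 56 cells against log10 mean TPM, for 7871 genes detected in at least 10 cells (grey), large (blue) and small (orange) subunit members, and the running median of genes of like level (black line). The members scatter around the line, with Mrpl47 2.72 above it and Mrps33 below it, at -2.68.

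Steady members were mostly of middle to low level. Mrps33, a mitochondria-specific small subunit protein, had the lowest excess, -2.68. It was detected in 52 cells at 67.2 ± 46.0 TPM, with 65 TPM in the median and 189 TPM in the highest cell, where the running median of like genes was 39 cells. Mrpl17, the counterpart of a bacterial protein near the exit of the peptide tunnel, had an excess of -2.36, with 61.2 ± 49.3 TPM, detection in 53 cells and a highest cell of 212 TPM. Both were found in nearly every cell and had no cell of very high level. Mrps36, which later work assigns to the alpha-ketoglutarate dehydrogenase complex and not to the ribosome, had an excess of -2.10 (30.1 ± 33.2 TPM, 50 cells, highest 129 TPM). Mrps25, at 21.3 TPM, had an excess of -2.0. Mrpl15 had -1.86 (77.7 ± 68.4 TPM, 54 cells, highest 423 TPM).

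The excess of the most variable member rested on a single cell. Mrpl47, which like its bacterial counterpart sits at the tunnel exit, had an excess of 2.72, and 41.1% of its total came from T3_2, with 4066 TPM, where the next highest cell had 568 TPM. Without T3_2 its excess was -0.14. Mrpl10, the base of the stalk, had 1.30, with 1323 TPM in T3_2 and 1059 TPM in the next highest cell, and 0.66 without T3_2. Mrpl24 had 1.5, and T3_2 was not its highest cell: T5_4 had 2750 TPM and the next highest cell 1643 TPM, against a median of 81 TPM, and without T3_2 its excess was 1.57. Mrps17 (0.91) and Mrps27 (0.78) came next and were not called. With each gene's highest cell left out, Mrpl24 (1.29), Mrpl10 (1.13) and Mrps27 (1.12) were above 1. These were 3 of 76 members, against 9.44% of all genes, and Mrpl47 was then at 0.29. The exons of Mrpl47 overlap Actl6a and Ndufb5 on the other strand and those of Mrpl24 overlap Rrnad1 and those of Mrpl10 overlap Gm11574 in the later annotation. No source used here says whether reads were counted by strand, so reads of such partners cannot be told apart.

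Members went up and down together only a little more than level-matched genes. Over the 2850 pairs of members the mean Spearman rho across the 56 cells was 0.0845. Each member's rho with the 100 other genes nearest in mean TPM to each of its partners averaged 0.0581, so the difference was 0.0264, and the mean over all pairs of the 7871 genes was 0.0434. All these values share the same 56 libraries and their depth. The coefficient was above 0 in 72.3% of pairs, reached 0.3 in 6.11% (174 pairs) and 0.5 in 3 pairs, and ranged from -0.41 to 0.54. For 69 of the 76 members the mean rho with the other members exceeded that with level-matched genes, by a median of 0.0273 over all 76. Each pair counts for both of its members, so these 76 differences are not independent. No such count was made for other sets of genes. Without T3_2 and T3_5 the mean between members fell to 0.0501, with a difference from level-matched genes of 0.0158, and without T3_2 alone it was 0.0626, with a difference of 0.0208.

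**Figure D3:**
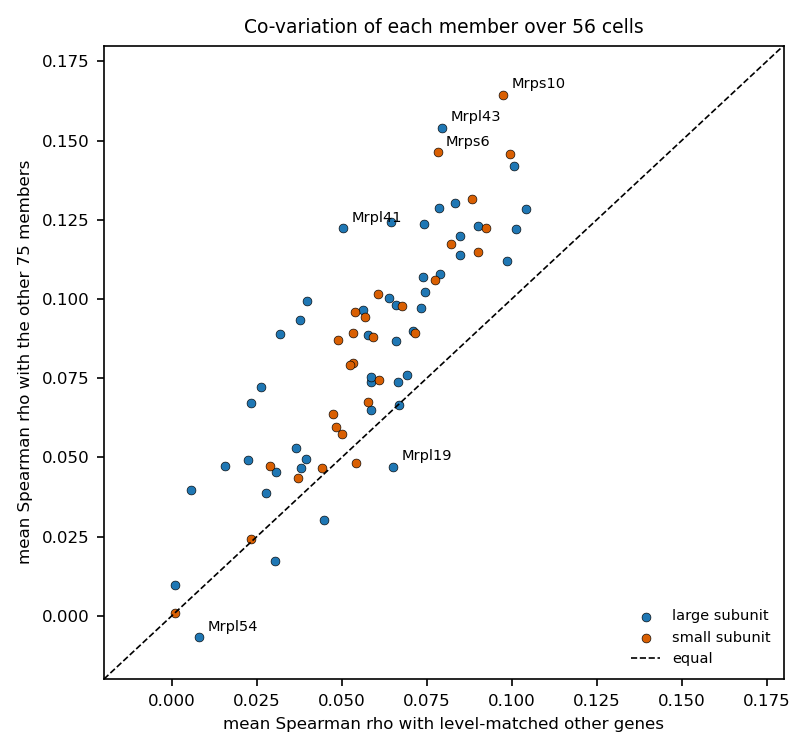
Mean Spearman rho of each member with the other 75 members (vertical) against its mean rho with level-matched genes (horizontal), over 56 cells, large subunit in blue and small subunit in orange, with the line of equality dashed. Points lie above the line for 69 of 76 members, and Mrps10, at 0.165, is the highest. Each pair counts for both of its members, so the points are not independent.

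The excess over level-matched genes was small in each set. In T2 the mean rho was 0.0543 between members and 0.0305 with level-matched genes, in T3 0.208 and 0.155, in T4 0.0492 and 0.0309, and in T5 0.0585 and 0.0336. In T1, with 8 cells, the values were 0.0243 and 0.0247. The high values in T3 went with its outlying cells: without T3_2 and T3_5 they were 0.0602 between members and 0.0529 with level-matched genes. When the number of other genes detected per cell was held constant (partial rho), the mean between members was 0.0370 and the difference 0.0185.

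No block structure by subunit, as read from the symbol, was seen in these values. The mean rho was 0.0837 between large subunit genes, 0.0885 between small subunit genes and 0.0840 between genes of different subunits. Mitochondria-specific members had 0.0939 among themselves, members with a bacterial counterpart 0.0815, and pairs across the classes 0.0843. In the same cells the mean rho was 0.406 among G2/M genes (level-matched genes 0.0658), 0.260 among G1/S genes (0.0554), 0.157 among cytosolic ribosomal proteins (0.0375), 0.146 among MYC and growth genes (0.0480), 0.100 among proteasome subunits (0.0551) and 0.0980 among genes of oxidative phosphorylation (0.0545).

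Mrps10, a protein of the head of the small subunit, had the highest mean rho with the other members, 0.165, against 0.0975 with level-matched genes. Mrpl43 followed with 0.154 (level-matched 0.0795), Mrps6, of the platform of the small subunit, with 0.146 (0.0782), and Mrps12, of the decoding centre, with 0.146 (0.0994). Mrpl17 and Mrps7 came next with 0.142 and 0.132. At the other end were Mrpl54 with -0.0068, Mrps18a, a relative of Mrps18c that sits in the large subunit, with 0.0008, Mrpl46 with 0.0098 and Mrpl10 with 0.0173. These members were also little correlated with level-matched genes, between 0.0008 for Mrpl46 and 0.0303 for Mrpl10.

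The closest pair was Mrpl17 and Mrpl52, whose promoter windows are printed above, with rho 0.541. Its rho was 0.493 as a partial value given genes detected, 0.522 without T3_2, and 0.667, 0.504, 0.634, 0.266 and 0.762 in sets T1 to T5. Mrpl38 and Mrps7 had rho 0.523 (partial 0.451; 0.144 to 0.711 within sets), and Mrps27, a member with RNA-binding repeats, and Mrps6 had 0.5 (partial 0.439; -0.342 to 0.838 within sets). The lowest pair was Mrpl54 and Mrps5 at -0.405, negative in all 5 sets. These pairs are the extremes of 2850 values, so they are a description.

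Genes detected per cell went with the number of members detected, and the relation with their summed level depended on the scaling. Members detected had a rho of 0.855 with the number of other genes detected (0.702 to 0.944 within sets), from 18 members in T3_2 and 33 in T3_3 through a median of 60.5 to 76 in T3_5. The summed TPM had a rho of 0.127 (-0.133 to 0.503 within sets), and with TPM divided by a size factor per cell it was -0.263. The mean level of those members that were detected was lower in cells with more genes, with a rho of -0.464. In T4_3, the cell with the fewest genes (2679), 38 members were detected and their sum was 17682 TPM, and T3_5, with the most genes, had all 76 and a sum of 17690 TPM. Since TPM sums to the same total in each cell, the level of a detected gene and the number of genes detected are not independent.

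**Figure D4:**
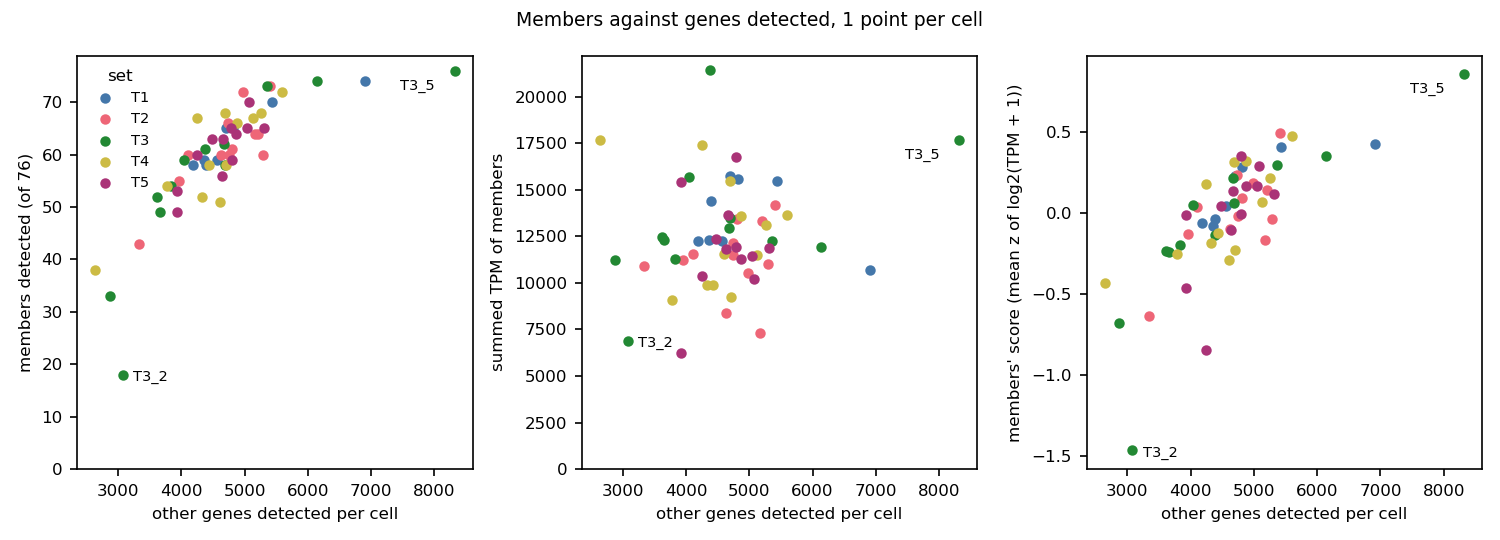
Number of members detected (left), their summed TPM (middle) and their score (right) against the number of other genes detected, 1 point per cell, coloured by set. Members detected climb from 18 in T3_2 to 76 in T3_5, while the sum has a rho of 0.127.

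The members' score, the mean of their z-scored log2(TPM + 1) values, had a rho of 0.789 (Pearson r 0.761) with genes detected over the 56 cells, 0.765 without T3_2 and T3_5, and 0.497 to 0.976 within sets. Of single members, 22 of 76 (28.9%) had a rho of 0.3 or more with genes detected, against 21.1% of all 7871 genes. Without T3_2 and T3_5 the count was 14 (18.4%), against 16.5% of genes. The median rho was 0.222, against 0.195 for the running medians of genes of like level, and 50 of 76 members (65.8%) were above theirs, against 49.7% of all genes. Without set T3 it was 44 members (57.9%), against 49.5%. Mrpl48 (0.52), Mrps31 (0.51), Mrpl37 (0.49), Mrps10 (0.46) and Mrpl17 (0.45) had the highest values. Mrps18a (-0.13), Mrpl46 (-0.08) and Mrpl40 (-0.02) had the lowest.

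The large and small subunit scores had a rho of 0.775 with each other, and 0.497 as a partial value given genes detected. Their summed TPM had a rho of 0.127 over the 56 cells and -0.238 to 0.308 within sets. The rho was thus high between scores and low between summed levels. A score averages many genes, so weak correlations between single genes can give a high rho between scores. Single pairs of a large and a small subunit gene had a mean rho of 0.0840, against 0.0566 with level-matched genes. No score of level-matched genes was computed, so whether 0.775 is particular to the 2 classes of symbols was not tested.

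The members' score went with both cycle scores, and with genes detected held constant little of the relation remained. The cycle was read from a G2/M score over 56 genes of mitosis and a G1/S score over 60 genes of DNA replication. The members' score had a rho of 0.477 with the G2/M score (Pearson r 0.408) and 0.465 with the G1/S score (r 0.476), and 0.474 and 0.409 without T3_2 and T3_5. The G2/M score itself had a rho of 0.554 with genes detected and the G1/S score 0.489. With genes detected held constant, the partial rho of the members' score was 0.0791 with G2/M and 0.148 with G1/S. Within sets the rho with the G2/M score was 0.524 (T1), -0.0420 (T2), 0.741 (T3), 0.545 (T4) and 0.846 (T5), so set T2 did not show it. The summed TPM of the members had a rho of 0.293 with G2/M (partial 0.270) and 0.370 with G1/S (partial 0.356), and -0.168 and -0.0909 in T2.

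How many single members related to cycling depended on the cells and the scaling. With the G2/M score, 7 of 76 (9.21%) had a rho of 0.3 or more, against 8.25% of the 7755 genes outside the cycle lists. Without set T2 the count was 17 (22.4%), against 12.1% of such genes, and without T1 it was 12 (15.8%), against 11.4%. With the size factor it was 4 (5.26%), against 6.92%, and as a partial value given genes detected 1 (1.32%), against 2.46%. With the G1/S score it was 9 of 76 (11.8%), against 8.59%. The median rho with G2/M was 0.136, against 0.0973 for genes of like level, and 46 of 76 members (60.5%) were above their running median, against 49.4% of all genes; leaving out a set gave 42 to 50 members. Mrpl48 had the highest rho with G2/M, 0.51, and it was also the member closest to genes detected. Mrps15 (0.42), Mrps12 (0.41), Mrpl18 (0.37) and Mrps6 (0.33) followed. Mrpl54 (-0.18), Mrpl46 (-0.16) and Mrps36 (-0.07) were lowest. With G1/S, Mrpl18 had a rho of 0.51, Mrpl42 0.49 and Mrpl48 0.48. The exons of Mrpl18 overlap those of Tcp1, a subunit of the cytosolic chaperonin, and Mrpl48 has a named pseudogene copy and overlaps Rab6a, so part of either value may be split with another gene.

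The score was then set beside those of genes that work with the mitochondrial ribosome and of other gene groups of dividing T cells. The nuclear genes of oxidative phosphorylation, whose products assemble with the proteins this ribosome makes, had the highest rho over the 56 cells, 0.734, with a partial rho of 0.465 given genes detected. Proteasome subunits had 0.670 (partial 0.298) and MYC and growth genes, mostly of nucleolar ribosome assembly and mitochondrial import, 0.592 (partial 0.471). The order of these 3 lists was not stable: the partial value was highest for MYC and growth genes, and the rho of the proteasome exceeded that of oxidative phosphorylation in T1 (0.881 and 0.310), in T4 (0.895 and 0.748), without T3 (0.655 and 0.647) and without T5 (0.738 and 0.732). A score averages its genes, and the lists differed in number of genes. These values therefore do not rank lists by how closely their single genes went with the members. Between members and single genes the mean rho was 0.0758 for oxidative phosphorylation, 0.0764 for the proteasome and 0.0865 for G2/M. The score of cytosolic ribosomal proteins had a rho of 0.333 (partial 0.259). Th2 cytokines had 0.387, and -0.0603 as a partial value. Across the sets the rho with oxidative phosphorylation was 0.310 to 0.937 and that with cytokines -0.336 to 0.818. By summed TPM, the members had a rho of 0.420 with oxidative phosphorylation, 0.382 with MYC and growth genes, 0.339 with the proteasome and 0.0701 with cytosolic ribosomal proteins.

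**Figure D5:**
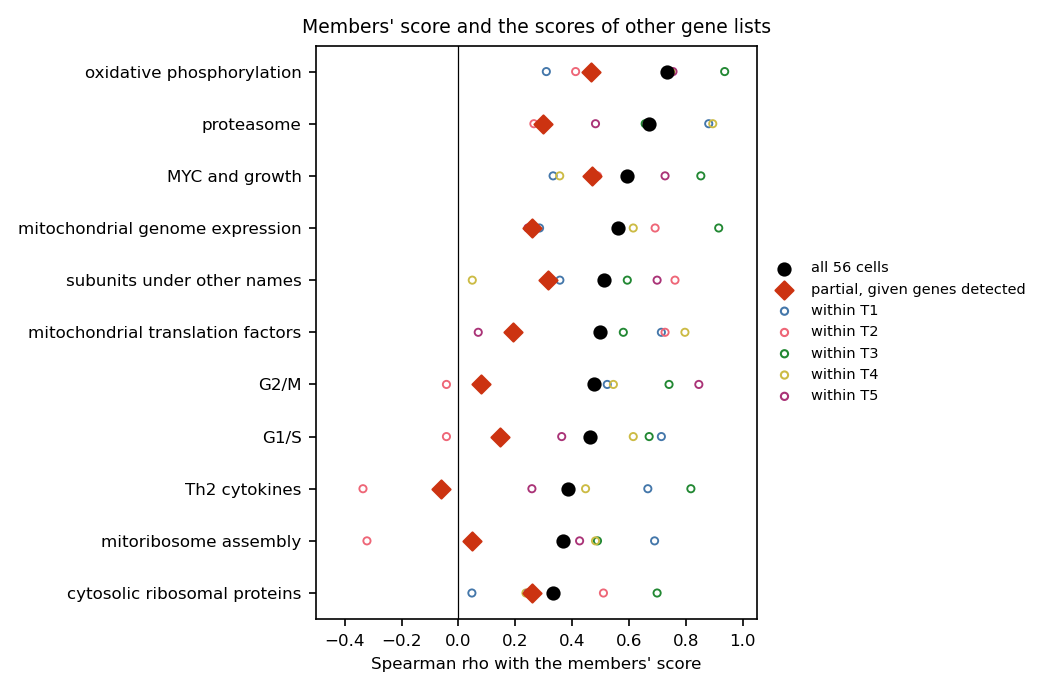
Spearman rho of the members' score with the scores of 11 other gene lists: all 56 cells (black circles), partial rho given genes detected (red diamonds) and within each set (open circles). Over all cells oxidative phosphorylation is highest at 0.734, and the partial values lie to the left, at 0.465 for that list and 0.0791 for G2/M. The lists differ in number of genes, so their order does not rank how closely single genes went with the members.

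The 6 subunits that carry other names gave a list score with a rho of 0.512 (partial 0.316). Dap3, a small subunit protein first known from cell death, averaged 29.3 ± 44.1 TPM in 36 cells, Chchd1 275 ± 203 TPM in 51 cells, and Aurkaip1 291 ± 232 TPM in 56 cells. Ptcd3, an RNA-binding repeat protein of the small subunit, averaged 206 ± 287 TPM with its highest cell in T3_2. Gadd45gip1 had 46.1 ± 49.0 TPM. Ict1, a rescue factor built into the large subunit, had 123 ± 276 TPM. Of these, Chchd1 alone reached a rho of 0.3 with the members' score (0.326), where 17.1% of all other genes did.

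Factors that act on the ribosome were lower and more sparse than its proteins. Of 33 listed translation factors and aminoacyl-tRNA synthetases in the table, 24 were detected in at least 10 cells, and the median of their mean levels was 25.6 TPM, against 114 TPM for the members. They were detected in a median of 24 cells, against 46.5 for the members. Their score had a rho of 0.499 with that of the members (partial 0.194; 0.0699 to 0.797 within sets). The mean rho between members and single translation factors was 0.0399, against 0.0540 with level-matched genes, and between members and assembly factors 0.0392, against 0.0552. Between members and G2/M genes it was 0.0865 (level-matched 0.0570), with G1/S genes 0.0822 (0.0561) and with MYC and growth genes 0.0775 (0.0565). With proteasome subunits it was 0.0764 (0.0534), with oxidative phosphorylation genes 0.0758 (0.0544) and with cytosolic ribosomal proteins 0.0484 (0.0520). A small excess over level-matched genes was thus not particular to pairs of members. Of the translation factors, 5 of 24 (20.8%) reached 0.3, against 17.1% of other genes. Tufm, the elongation factor that brings tRNAs to the ribosome, had a rho of 0.451 and a partial rho of 0.465 (26.0 ± 41.3 TPM, 38 cells). Tsfm, its exchange factor, had 0.326 (partial 0.132) and Gfm1, the translocase, 0.275 (partial 0.188). Lars2, the leucyl-tRNA synthetase, was detected in all cells and had a rho of -0.366 (partial -0.0925), with its highest value, 442 TPM, in T3_2. Of the 22 assembly factors that entered, 2 (9.09%) reached 0.3: Eral1, a GTPase of small subunit assembly, with 0.393 (partial 0.112) and Mtg1, a GTPase of the large subunit, with 0.301 (partial 0.122). Of the 18 genes for replication, transcription and RNA handling of the mitochondrial genome, 5 (27.8%) did. They were Ssbp1, the single-strand binding protein, with 0.422 (partial 0.203), Tfb2m, a transcription factor, with 0.413 (partial 0.114), Peo1, the helicase Twinkle, with 0.362 (partial 0.338), Tfam, which packages and transcribes the genome, with 0.35 (partial 0.407), and Supv3l1, an RNA helicase, with 0.323 (partial 0.275). Tfam and Peo1 were the 2 that also reached 0.3 as partial values, against 3.44% of all other genes. Peo1, listed as Twnk in the later annotation, has exons that overlap those of Mrpl43.

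Among the larger lists, 24 of 76 oxidative phosphorylation genes (31.6%) reached a rho of 0.3 with the members' score and 6 (7.89%) a partial rho of 0.3. For MYC and growth genes the counts were 11 of 37 (29.7%) for rho and 11 of 37 for partial rho, for cytosolic ribosomal proteins 17 and 8 of 73, and for G2/M genes 31 and 0 of 56. The backgrounds were 17.1% for rho and 3.44% for partial rho.

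Of the 5639 other genes detected in at least 20 cells, those with a pattern most like the members' score over the 56 cells were Ankrd32 (rho 0.598), Hadh (0.595), Gpr183 (0.593), Bub3 (0.585), Trappc1 (0.579), Mbnl3 (0.571), Cdc5l (0.565), 2310003c23rik (0.564), Bzw2 (0.562) and Parl (0.555), where the median gene had 0.178. Hadh is an enzyme of mitochondrial fatty acid oxidation, Parl a protease of the inner mitochondrial membrane, Bub3 a spindle checkpoint protein and Gpr183 an oxysterol receptor that guides lymphocytes. By partial rho given genes detected the first were Timm13 (0.552), a chaperone of mitochondrial import, Pdcd5 (0.532), Bzw2 (0.531) and Ints10 (0.528), and Tufm was among the first 10 with 0.465. Bzw2 and Bub3 (partial 0.486) were in both groups of 10.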

How the data were processed

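RNA was sequenced in 56 single cells, whose deposited values were analysed as 1 table. The unit is a score: TPM that the authors rounded to whole numbers before they deposited it, since all values are whole and columns sum to between 999202 and 999914. Per the submitters' processing notes, the build was mm9 and FastQC, Bowtie 0.12.2 and Cufflinks were used, in roles not given in the sources used here. Depth per cell is unknown from TPM, and intervals cover counting error of cells only.

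This gene family, its symbol rule and the gene lists were chosen with earlier results of these data known, and named genes follow a rule: extremes of level, variation, mean rho and rho with genes detected and G2/M. Detection was 1 TPM or more, and 7871 genes detected in at least 10 cells entered. Scores used log2(TPM + 1). Running medians took the nearest genes in mean TPM, centred on each gene; level-matched rho took the 100 non-members nearest in mean TPM to each partner, with none drawn at random. Analysis used Python 3.11.15, numpy 2.4.6, pandas 2.3.3 and scipy 1.17.1, and was tested on simulated data. Cells are 1 sample, so no test was made. Names, transcript lengths and overlaps came from a GRCm38.p6 annotation, later than mm9. Alternatives changed the detection level, filters, window, measure, scaling, sets and cells; those for T3_2 alone, T3_5 alone and overlapping members were chosen after seeing the data.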

Additional observations from a re-analysis of the deposited data

How the results depend on the processing

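Of 356 recomputed values for 25 results, 334 moved by no more than a spread, or stayed within 1.5 times for a count. For a rho the spread was the SD of the values within the 5 sets, and for a median the SD over members. The SD over sets was wide, 0.343 for the score's rho with G2/M and 0.390 for that with assembly factors. A fall of the latter from 0.368 to 0.0479, given genes detected, thus did not count as a move. Detection at 10 TPM left 1 member in every cell, and 5 were in every cell without T3_2. Measured as the SD of log2(TPM + 1), variation was below -1 in 4 members and above 1 in 1, against 4.03% and 1.21% of all genes. The count above 1 was 1 without T3_2, against 12.1% of all genes. It was 5 without set T4 and 1 without T3_2 and T3_5. For these last settings the share of all genes was not computed, and over all 56 cells it was 13.1%. Given genes detected, the score's partial rho was 0.0791 with G2/M, 0.148 with G1/S, 0.465 with oxidative phosphorylation and -0.0603 with Th2 cytokines, and 1 member reached 0.3 with G2/M. That count was 4 with TPM divided by a size factor, 12 without T1 and 17 without T2, against 6.92%, 11.4% and 12.1% of genes outside the cycle lists. With the size factor, the summed TPM had a rho of -0.263 with genes detected, and the score -0.0154 with cytosolic ribosomal proteins. Without T3_2 and T3_5, 14 members reached 0.3 with genes detected, against 16.5% of genes. The mean rho between members stayed above that with level-matched genes in all 16 alternatives, by 0.0158 to 0.0347. Where the construction does not show it, the cause was not tested. No paired analysis was possible because the cells form 1 group. Depth is unknown, sets cannot be told from batches, and animals are not named.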

Other observations

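Members have short transcripts. The longest annotated transcript of a member had a median of 1302 bases (463 to 7300), against 3038 bases over the 6893 genes that entered and had a length. Across members, mean TPM and this length had a rho of -0.381 (76 genes), and -0.411 across those 6893 genes; genes are not independent replicates. Exons of 25 members overlap another gene in the later annotation, 21 of them on the other strand and 5 on the same strand. Of the 51 members without an overlap, 9 (17.6%) had an excess variation below -1, and their median excess was -0.09.

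Cell T3_2 was the highest cell for 2.78% of the 7871 genes (219 genes). It was the highest cell for 6 of the 82 related genes of mitochondrial translation and genome expression: Mettl17, an assembly factor of the small subunit, with 6048 TPM, Ptcd3 with 1662 TPM, Mtif3, an initiation factor, with 829 TPM, Polrmt, the mitochondrial RNA polymerase, with 603 TPM, Lars2 with 442 TPM and Ears2, the glutamyl-tRNA synthetase, with 47 TPM. They were chosen after their values were seen. It was the highest cell for 2 of the 76 members, Mrpl47 and Mrpl10.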
